A study of Mus musculus with 8 samples.

Results

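The genes described here carry the symbol Gpr followed by digits and at most 1 letter, a naming series given to G protein coupled receptors when their ligand was unknown. Gpr34 was left out by the rule. Of 21883 protein-coding mouse genes on the main chromosomes, 73 met the rule, spread over 19 chromosomes. They were followed in a map of FOS binding in microglia. FOS pairs with JUN proteins to form AP-1, a transcription factor that stimulation switches on. Microglia, the resident macrophages of the brain, had been sorted from the cortex of 4 mice aged 30 postnatal days, 4 h after a unilateral intracerebroventricular injection of IL-33, an alarm cytokine of the interleukin-1 family. Each mouse gave 1 FOS immunoprecipitate and 1 input library. IL-33 was given to every mouse, and libraries from vehicle-treated mice were not analysed here, so the values describe FOS after IL-33 and not a change caused by it. Strain, genotype and sex are not stated in the labels used here.

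The deposited table lists 32773 regions on mm10, merged by the authors from a list of FOS peaks and a second list whose name reads as IL-33 against vehicle. That second list is called the IL-33 list here, and the sources used here do not name its assay. Regions with a FOS peak were FOS-only or, if a peak of the IL-33 list was merged in, shared. The others were IL-33-only. The score is the authors' peak statistic on a scale that is not stated, and it ranks regions within this table only. The number ending a FOS peak's name runs from 1 to 4 and is called its number of calls. Reading it as a count of FOS libraries with the peak is an inference. There are no values per mouse, so sequencing depth is unknown, no value has a replicate error and nothing was tested between groups. Of 10 microglia marker genes, 10 had a FOS region and 9 had one from 4 calls. Of 8 neuron markers 1 had a FOS region, as did 4 of 6 astrocyte, 4 of 6 oligodendrocyte lineage, 4 of 4 endothelial, 1 of 5 neutrophil and monocyte and 1 of 4 lymphocyte markers. Regions from 4 calls were at 0, 2, 1, 3, 1 and 1 of these genes in the same order, and among all coding genes 50.6% had a FOS region and 17.5% one from 4 calls. The part that other cells might have in the regions below was not tested.

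G protein coupled receptors span the membrane and, once a ligand binds, hand the signal to heterotrimeric G proteins, which raise or lower cAMP, release calcium or act on the cytoskeleton. Receptor kinases and arrestins then switch the receptor off, and RGS proteins speed the return of the G protein to rest. In macrophages and microglia, receptors of the Gpr series read acid, fatty acids, oxysterols and lysophospholipids, while other members are known mainly from neurons. Some Gpr-named proteins sit in the Golgi or lysosome and are not classical receptors.

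Among the 73 genes, 52 had a listed start site with a window of 300 bases (250 before and 50 after it) in the RefSeq table for GRCm38.p6, the assembly that mm10 represents. A FOS region overlapped the window of 9 of these 52 genes (17.3%), against 29.7% of all 17491 coding genes with a window. The 4-call regions covered the window of 3 of the 52 genes (5.77%, background 5.37%). Windows of 5 genes are shown because they hold FOS regions at a member's listed start site. The first 3 lay under regions from 4 calls, Gpr18 lay under a region from 2 calls, and Gpr107 stands for the windows rich in CpG. The Gpr107 region also lay over the window of a neighbouring start site on the other strand, that of D330023K18Rik, with 279 bases under the region against 232 for Gpr107. Each reads 5′ to 3′ along the gene's strand, and capitals mark the central 100 bases of the FOS region as far as they fall in the window.
Gpr84: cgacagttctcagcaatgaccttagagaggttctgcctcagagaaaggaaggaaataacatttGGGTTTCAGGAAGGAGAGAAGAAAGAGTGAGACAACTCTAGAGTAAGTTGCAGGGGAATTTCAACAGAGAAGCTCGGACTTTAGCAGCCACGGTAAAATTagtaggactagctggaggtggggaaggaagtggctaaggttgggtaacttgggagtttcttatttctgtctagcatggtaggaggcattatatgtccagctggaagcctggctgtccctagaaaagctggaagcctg
Gpr35: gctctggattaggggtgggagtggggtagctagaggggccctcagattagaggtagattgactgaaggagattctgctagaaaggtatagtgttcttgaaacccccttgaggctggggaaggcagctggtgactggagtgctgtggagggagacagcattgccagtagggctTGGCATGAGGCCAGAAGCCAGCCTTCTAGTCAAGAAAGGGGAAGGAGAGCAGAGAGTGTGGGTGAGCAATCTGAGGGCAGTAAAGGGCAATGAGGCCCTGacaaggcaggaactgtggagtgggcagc
Gpr31b: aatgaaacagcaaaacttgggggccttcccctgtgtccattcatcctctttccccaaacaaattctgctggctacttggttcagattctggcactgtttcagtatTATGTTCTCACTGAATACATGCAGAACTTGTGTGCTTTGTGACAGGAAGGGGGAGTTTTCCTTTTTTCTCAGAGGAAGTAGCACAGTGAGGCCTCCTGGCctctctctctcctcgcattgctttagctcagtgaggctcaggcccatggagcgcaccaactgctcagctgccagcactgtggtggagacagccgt
Gpr18: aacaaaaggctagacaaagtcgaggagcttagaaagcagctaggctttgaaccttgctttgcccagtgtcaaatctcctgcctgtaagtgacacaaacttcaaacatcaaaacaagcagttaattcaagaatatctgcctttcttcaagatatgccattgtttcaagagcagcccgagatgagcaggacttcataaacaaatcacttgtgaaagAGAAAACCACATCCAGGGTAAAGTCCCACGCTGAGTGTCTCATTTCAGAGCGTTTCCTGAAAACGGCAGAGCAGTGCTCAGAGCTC
Gpr107: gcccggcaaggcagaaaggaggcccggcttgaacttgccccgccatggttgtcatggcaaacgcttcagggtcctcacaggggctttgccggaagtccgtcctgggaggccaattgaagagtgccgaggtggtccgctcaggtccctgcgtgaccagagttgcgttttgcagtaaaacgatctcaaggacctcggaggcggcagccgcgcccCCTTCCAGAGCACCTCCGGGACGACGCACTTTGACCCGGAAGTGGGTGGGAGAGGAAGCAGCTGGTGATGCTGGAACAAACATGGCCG
The Gpr84 window is chr15:103310389-103310688 on the minus strand, the Gpr35 window chr1:92972869-92973168 on the plus strand, and the Gpr31b window chr17:13052231-13052530 on the minus strand. Those of Gpr18 (chr14:121915839-121916138, minus strand) and Gpr107 (chr2:31152066-31152365, plus strand) follow. The windows of the leukocyte receptors were poor in CpG, with 3 CpG in Gpr84, 0 in Gpr35, 3 in Gpr31b and 5 in Gpr18. Gpr107 had 20, Gpr157 18, Gpr180 29 and Gpr146 32, and Gpr165 had 8. The median was 23 over the 6655 windows in the table under a FOS region and 7 over all 32851 windows.

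Motifs were searched on both strands of these windows. Parts of a FOS region outside its window were not searched, and only 12 bases of the Gpr165 window lay under its region. The AP-1 motif TGANTCA was in 0 of the 9 member windows under a FOS region, in 5.27% of all windows under a FOS region and in 7.81% of all windows. The cAMP response element TGACGTCA was in 0 of the 9, against 3.85% and 1.79%. The PU.1-type motif GAGGAAGT, named for the macrophage factor PU.1, was in 1 of the 9, at Gpr31b, starting 74 bases before the start site, against 4.99% and 3.20%. A further motif, GGGAATTTC, of the type that NF-kappaB binds, was searched after the Gpr84 sequence had been read. It was in the Gpr84 window, starting 134 bases before the start site and inside the capitals, and in 0.210% of windows under a FOS region and 0.259% of all windows. Such matches describe the letters and do not show that a factor was bound. With 9 windows, a count of 0 does not show that the members' FOS regions lack a motif.

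FOS regions were found at 30 of the 73 genes (41.1%), against 50.6% of all coding genes. These 30 genes held 56 FOS regions, with 1 region at 17 genes, 2 at 7, 3 at 3 and 4 or more at 3 genes, Gpr132, Gpr107 and Gpr157. A FOS region lay inside the gene body at 19 genes (26.0%, background 38.2%). Regions from 4 calls were given to 14 genes (19.2%), close to the background of 17.5%, and at least 3 FOS regions were given to 6 genes (8.22%, background 16.5%). Of the 56 regions, 19 came from 4 calls (33.9%, background 23.0%) and 19 from 1 call (33.9%, background 39.2%), and 30 lay inside a gene body (53.6%, background 62.4%). The median score of the 56 regions was 23.9 (quartiles 12.8 and 30.2), against 20.6 (12.8 and 29.9) over all 29681 FOS regions given to a gene. Within regions from 4 calls it was 32.3 (26.8 and 38.6) over 19 member regions and 35.7 (27.2 and 47.3) over all. The quartile ranges overlapped widely in both comparisons, and neither difference was tested. Of the 30 genes, 10 had no region from more than 1 call, and their highest scores ran from 7.64 at Gpr137b to 22.0 at Gpr19. The other 20 had one from 2 or more calls, as did 8104 of the 11075 coding genes with a FOS region.

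**Figure D1:**
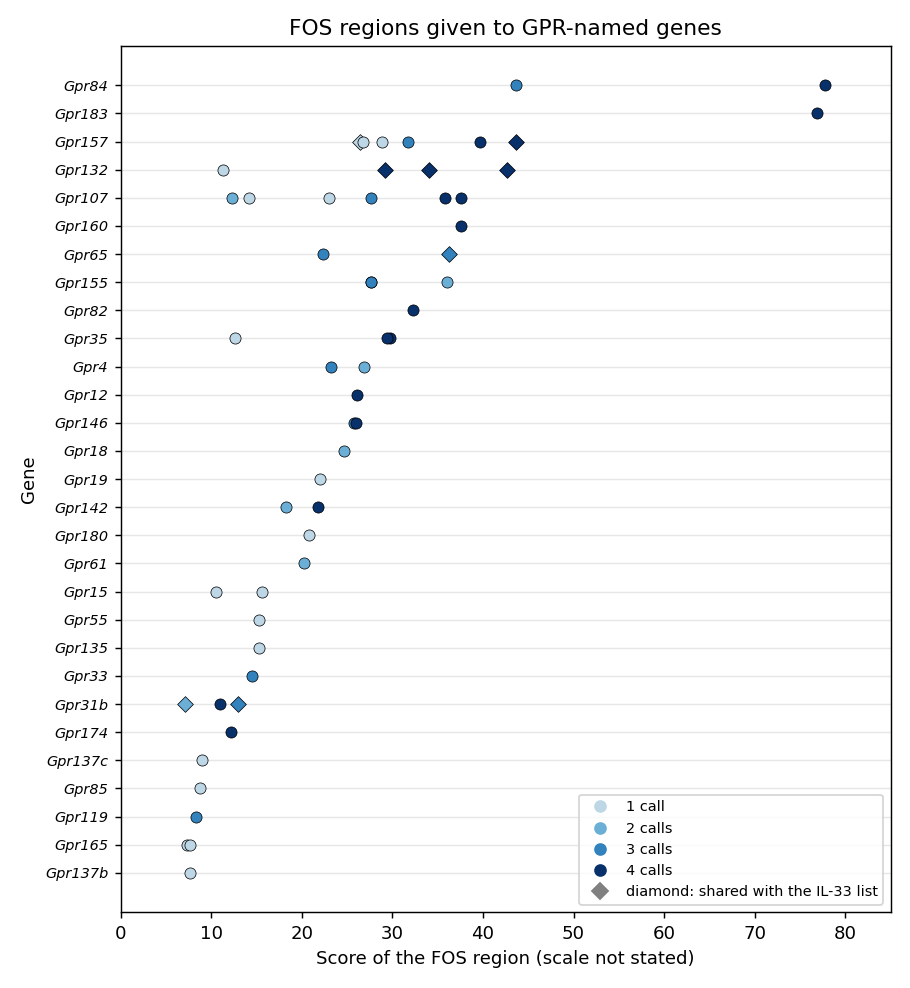
Score of each FOS region (x axis, scale not stated) for 29 of the 30 GPR-named genes that had one (y axis), with colour for the number of calls and diamonds for regions shared with the IL-33 list. Gpr84 at 77.8 and Gpr183 at 76.8 stand apart from the next gene, Gpr157 at 43.7.

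The genes were also counted by role, with no test of the differences between groups. Receptors of leukocytes and metabolites had a FOS region in 10 of 14 (71.4%) and one from 4 calls in 6 of 14. Without regions that lie inside several gene bodies, which removed Gpr18, Gpr183 and Gpr82, the first count was 7 of 14, against 48.7% of all coding genes. Counting any FOS region within 10 kb, whichever gene was nearest, it was 8 of 14 (57.1%), against 57.0%. Proton-sensing receptors had one in 3 of 4. Of the 27 orphan receptors known mainly from neurons and sensory cells, 5 had a FOS region (18.5%) and 0 had one from 4 calls. Membrane proteins outside the classical receptor families had one in 5 of 8, the constitutively active cAMP receptors in 1 of 3, the SREB receptors (superconserved receptors expressed in brain) in 1 of 3, the glial receptors Gpr17 and Gpr37 in 0 of 2, and the remaining members in 5 of 12. Each of these shares is to be read beside 50.6% for any FOS region and 17.5% for 4 calls.

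**Figure D2:**
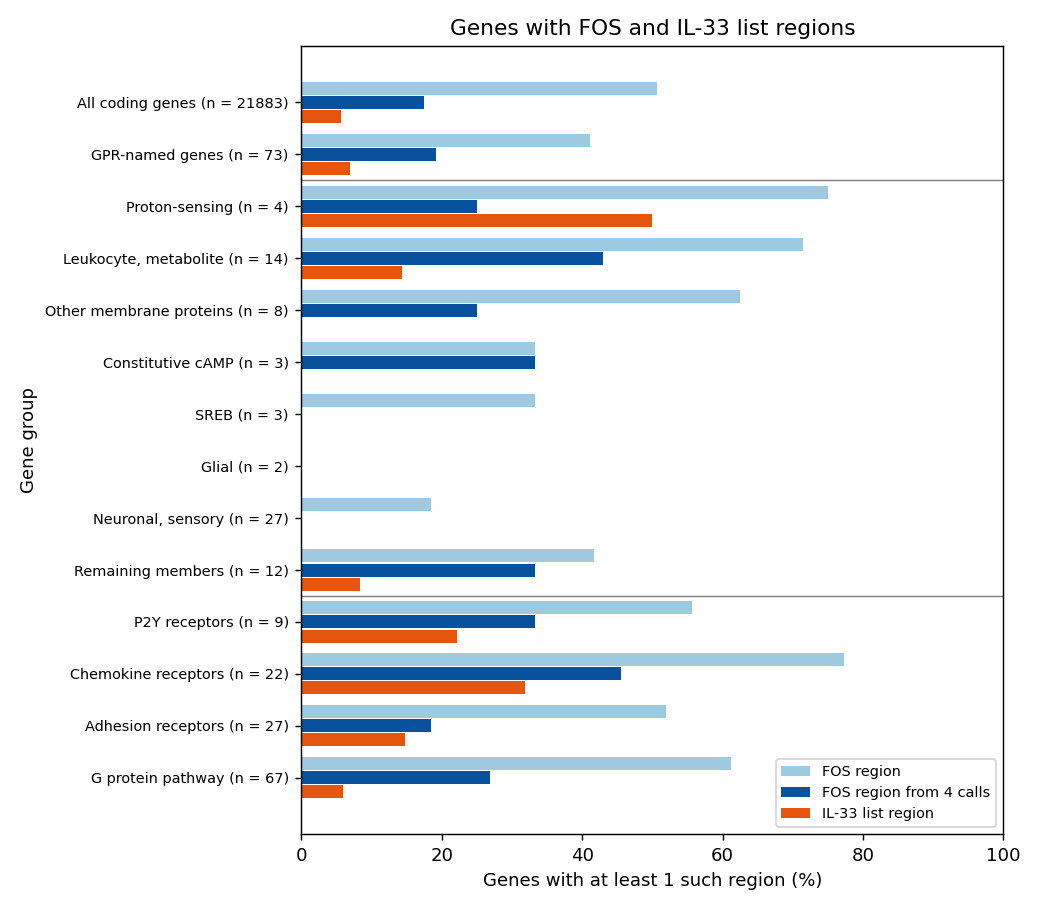
Percent of genes (x axis, from 0) with at least 1 FOS region, FOS region from 4 calls or IL-33 list region, for all coding genes, the GPR-named genes and their role groups, and receptor and G protein lists set beside them (y axis, with the number of genes). Neuronal and sensory members stand at 18.5% for any FOS region, and leukocyte and metabolite receptors at 71.4%.

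Gpr84 and Gpr183 had the highest scores. Gpr84, a receptor for medium-chain fatty acids that myeloid cells raise under inflammation, had a FOS-only region from 4 calls at chr15:103310400-103310750 with a score of 77.8. Its centre lay 137 bp upstream of the start site, so the region covers the window printed above. Only 0.728% of FOS regions scored as high or higher, and Gpr84 ranked 187 among the 11075 coding genes with a FOS region. A second FOS-only region, from 3 calls and with a score of 43.6, lay 2978 bp outside the gene and 5183 bp downstream of its start. Between them lay an IL-33-only region of 1 call, 3997 bp downstream of the start. Its centre was 1186 bp from the lower-scoring FOS region and 4134 bp from the higher one, so neither FOS region was shared. Gpr183, the oxysterol receptor that guides the positioning of immune cells and is also called EBI2, had 1 FOS-only region from 4 calls, with a score of 76.8 (chr14:121961762-121962095). It ranked 202 among genes and lay inside the gene, 3265 bp downstream of the start. Both Gpr183 and Gpr18 lie within the body of Ubac2, so their regions were given to Ubac2 as well.

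Other receptors of this group had lower scores. Gpr18, for which lipid ligands have been proposed, had 1 FOS-only region from 2 calls, with a score of 24.6, 14 bp downstream of its start. Gpr35, for which kynurenic acid has been proposed as a ligand, had 3 FOS-only regions inside the gene. Those of 4 calls, scoring 29.8 and 29.4, lay 882 bp and 29 bp upstream of a start site, and the region of 1 call scored 12.6 and lay 15986 bp upstream. Gpr82, an orphan receptor that lies within the body of Cask and near the gene left out, had 1 FOS-only region from 4 calls with a score of 32.3. It was given to Cask as well. Gpr31b, whose human counterpart binds an oxidised arachidonic acid, had a FOS-only region from 4 calls with a score of 10.9, centred 95 bp upstream of its start. It also had shared regions of 3 calls (12.9) and 2 calls (7.05), 3061 and 4057 bp upstream. Gpr31b has related sequences annotated as the pseudogenes Gpr31a and Gpr31c, so reads there may be shared between copies. Gpr174, a lysophosphatidylserine receptor of lymphocytes, had a region from 4 calls scoring 12.2, which lay 33296 bp outside the gene. Gpr33 (14.4, 3 calls), Gpr15 (15.6, 1 call) and Gpr55 (15.3, 1 call), the last a lysophosphatidylinositol receptor, had FOS-only regions and none from 4 calls. Gpr25, Gpr141, Gpr141b and Gpr171 had no FOS region.

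The proton-sensing receptors respond to acid outside the cell. Gpr132, which has been linked to lysophospholipids in macrophages, had 4 FOS regions, and 3 of them were shared and from 4 calls. These lay inside the gene and upstream of its listed start site, as the annotated body reaches beyond that site to chr12:112868416. One at chr12:112864755-112865255 scored 42.7 and lay 4089 bp upstream, one at chr12:112866467-112866967 scored 29.2 (5801 bp), and one at chr12:112867220-112867720 scored 34.1 (6554 bp). Their neighbouring centres were 1712 and 753 bp apart. The FOS and IL-33 list peaks within them were centred 40, 8 and 12 bp from each other, and each IL-33 list peak had 2 calls. The remaining region, FOS-only and from 1 call, scored 11.3 and lay 1461 bp beyond the gene. The next coding gene body, Gm52009, lay 34729 bp or more from the 3 shared regions.

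Gpr65, or TDAG8, which raises cAMP when acid rises, had a shared region from 3 calls with a score of 36.2 at chr12:98283116-98283746. It lay 6709 bp outside the gene on the downstream side. Its IL-33 list peak had 4 calls, the most among the members, and the peak centres were 176 bp apart. A FOS-only region from 3 calls scored 22.4 and lay 2771 bp upstream of the start. Gpr4, known mainly from endothelium, had FOS-only regions of 2 calls (26.9) and 3 calls (23.2), both inside the gene.

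**Figure D3:**
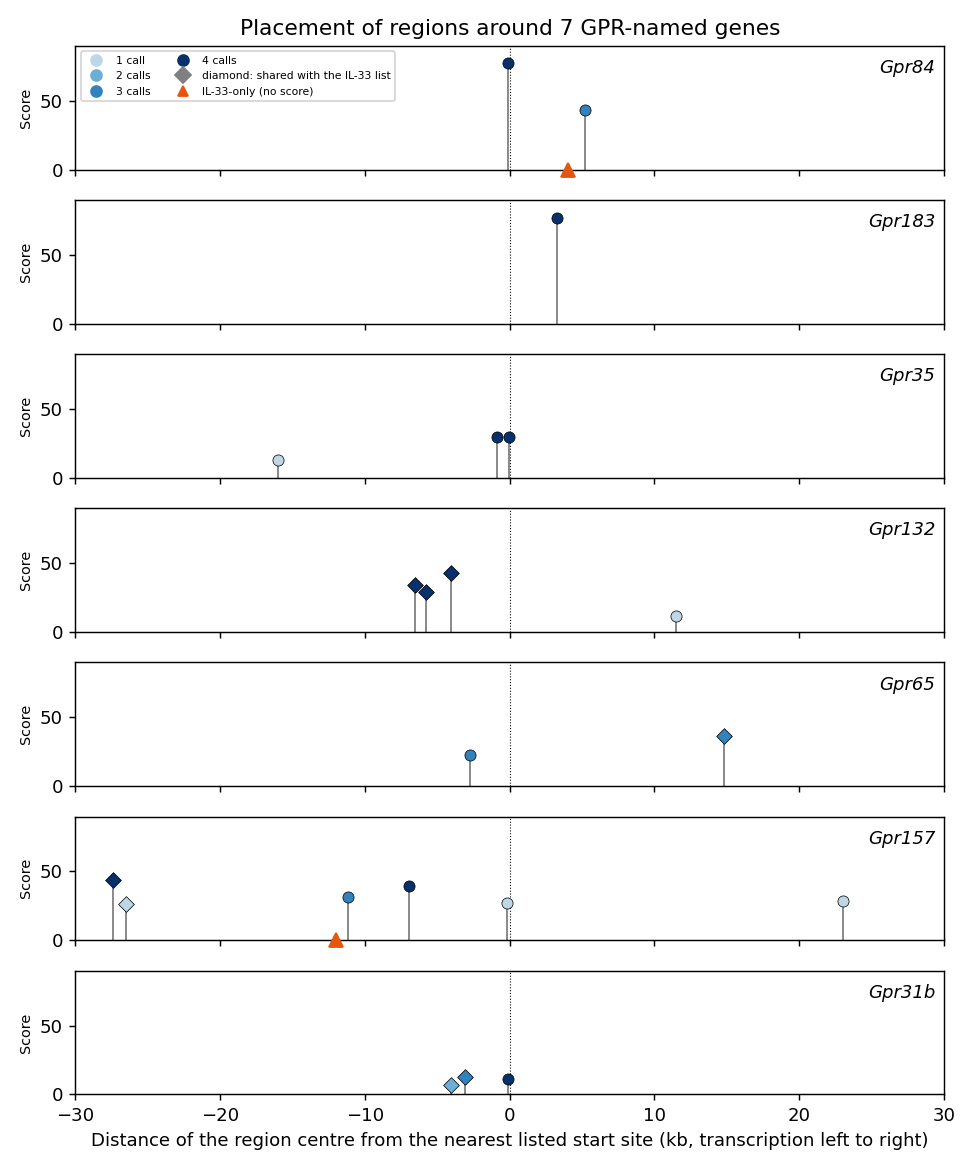
Distance of each region's centre from the nearest listed start site (x axis, kb, transcription left to right) and its score (y axis) at 7 members, with circles for FOS-only, diamonds for shared and triangles at 0 for IL-33-only regions, which have no score. The strongest Gpr84 region sits at the start site. The 3 shared Gpr132 regions lie 4089 to 6554 bp upstream of its listed start site but inside the annotated gene body.

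Regions of the IL-33 list were at 5 of the 73 genes (6.85%, background 5.64%), and shared regions at 4 (5.48%, background 4.34%), both close to the background. The 5 genes were Gpr132, Gpr65, Gpr31b, Gpr157 and Gpr84, the last with an IL-33-only region. IL-33-only regions were at 2 genes, Gpr157 and Gpr84 (2.74%, background 3.13%). Counted by region, 8 of the 56 FOS regions were shared (14.3%), against 4.89% of all FOS regions given to a gene. Of these 8, 3 were at Gpr132 and 2 each at Gpr157 and Gpr31b, so they come from few loci.

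Gpr157, an orphan receptor known from the cilia of neural progenitors, had 6 FOS regions and 1 IL-33-only region. Its shared region from 4 calls scored 43.7 (chr4:150059822-150060322) and lay 27431 bp upstream of the start. A second shared region, 890 bp from it by centres, came from 1 call and scored 26.4. The FOS-only regions upstream scored 31.7 (3 calls), 39.7 (4 calls) and 26.7 (1 call, 196 bp from the start). One at 23003 bp downstream scored 28.8. The IL-33-only region lay 866 bp from the FOS-only region of 3 calls. The next coding gene to the shared regions, H6pd, was 51049 bp from the higher-scoring one, so Gpr157 was the nearest gene without being shown to be its target.

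Among the membrane proteins outside the classical families, Gpr107, which is found in the Golgi, had 6 FOS-only regions, all inside its body. Regions of 4 calls scored 37.6 and 35.8, one of 3 calls at the start site scored 27.6, and the remaining 3 scored 12.3 to 23.0. Gpr155, a lysosomal protein that senses cholesterol, had 3 FOS-only regions with scores of 36.0 (2 calls), 27.7 (3 calls) and 27.6 (4 calls). The highest lay 411 bp outside the gene and also over 128 bases of the start site window of Gm13707. Gpr180 (20.8), Gpr137c (8.97) and Gpr137b (7.64) each rested on 1 call. Gpr89, Gpr108 and Gpr137 had no FOS region.

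Of the remaining members, Gpr160 had 1 FOS-only region from 4 calls, with a score of 37.5, 8894 bp downstream of its start. Gpr146, a receptor that acts on cholesterol handling in liver, had regions of 4 calls (26.0) and 3 calls (25.8), which were given to the overlapping gene 3110082I17Rik too. Gpr12, which raises cAMP without a known need for ligand, had a region of 4 calls scoring 26.0 that lay 69139 bp outside it. Gpr142, a tryptophan receptor of pancreatic islets, had regions of 4 calls (21.8) and 2 calls (18.2) outside the gene. Gpr119, a lipid receptor of gut and islets, had 1 region of 3 calls at 8.26. Gpr85, an SREB receptor, had 1 region of 1 call at 8.71.

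The neuronal and sensory members with a FOS region included Gpr19 (22.0), Gpr61 (20.2), Gpr135 (15.3) and Gpr165 (7.65). Gpr61 had 2 calls, and the other 3 of these genes rested on 1. The Gpr61 region lay 339 bp outside that gene and 1830 bp from Gnai3, a G protein subunit gene. Among the 22 without one were Gpr21, Gpr22, Gpr26, Gpr45, Gpr50, Gpr52, Gpr62, Gpr63, Gpr75, Gpr83, Gpr101, Gpr139, Gpr149, Gpr151, Gpr152, Gpr153, Gpr158, Gpr162, Gpr176 and Gpr179. Other members without a FOS region included Gpr3, Gpr6, Gpr27, Gpr173, Gpr17, Gpr37, Gpr1, Gpr20, Gpr39, Gpr143, Gpr161 and Gpr182.

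**Figure D4:**
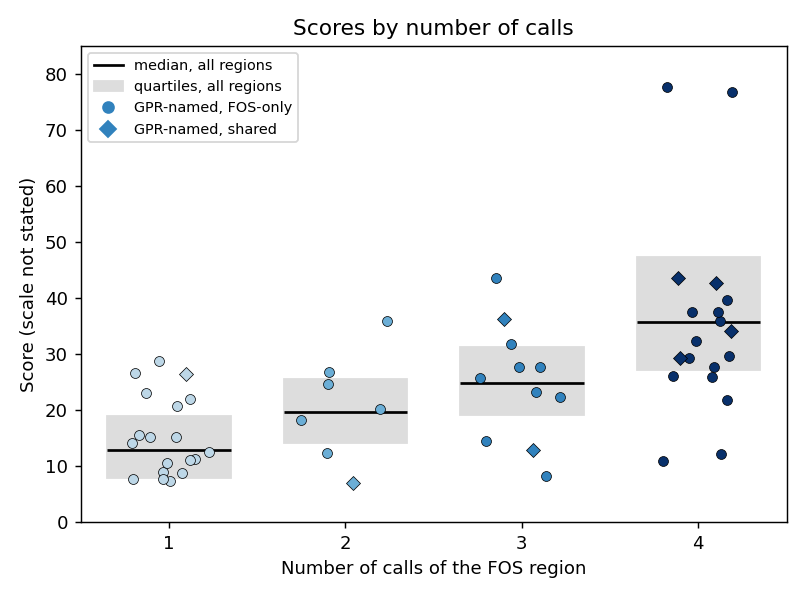
Scores (y axis, scale not stated) of the 56 member regions by number of calls (x axis), drawn over the median and quartiles of all FOS regions given to a gene. Among regions from 4 calls, Gpr84 and Gpr183 lie above the upper quartile of 47.3 and 8 of 19 reach the median of 35.7.

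The assignment to the nearest gene bears on the 43 genes without a FOS region. A FOS region that went to another gene lay within 10 kb of 6 of them. These were Gpr1 (highest score 47.7), Gpr152 (42.8), Gpr137 (36.4), Gpr173 (16.2), Gpr108 (15.3) and Gpr179 (11.8). Of the 12 members whose body lies within that of another coding gene, 8 were without a FOS region, among them Gpr171 inside Med12l. Of all 73 members, 43 were without one. No FOS region lay within 100 kb of 13 members. The same shares over all coding genes were not computed, so these counts have no background beside them. Body length differed as well. The median was 11639 bp for the members and 17170 bp for all coding genes. Over all coding genes the share with a FOS region was 16.7% up to 3 kb of body, 40.5% from 3 to 10 kb, 55.9% from 10 to 30 kb, 67.3% from 30 to 100 kb and 68.0% above 100 kb. Members had 4 of 11, 10 of 22, 8 of 19 and 8 of 19 in the same classes, and 0 of 2 above 100 kb. These classes hold too few members to tell whether their share changed with length. The part of length in the members' count was not tested.

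Other receptor families were counted in the same way. Chemokine receptors had a FOS region in 17 of 22 (77.3%) and an IL-33 list region in 7, P2Y receptors in 5 of 9 (55.6%) and 2, and adhesion receptors in 14 of 27 (51.9%) and 4. The members stood at 41.1% and 6.85%, and all coding genes at 50.6% and 5.64%, so the FOS shares of P2Y and adhesion receptors were near the background. No test of these differences was made, since genes of a list are not replicates.

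Genes that carry the receptor signal inside the cell or switch it off had a FOS region in 41 of 67 (61.2%). They had one from 4 calls in 18 (26.9%), against 50.6% and 17.5% of all coding genes. For any FOS region, RGS genes (47.6%) and adenylyl cyclases (40%) stood below 50.6%. Shared regions were at 3 of the 67 genes (4.48%, background 4.34%) and IL-33 list regions at 4 (5.97%, background 5.64%), both close to the background. The median body length of the 67 genes was 45886 bp. G protein alpha subunits had one in 11 of 13, led by Gna15 (65.9), Gna13 (56.9), Gnaq (52.2) and Gnai2 (52.1). Gnai2 is the main alpha subunit of the type that lowers cAMP in leukocytes. Gna15 couples receptors of blood cells to phospholipase C. Beta and gamma subunits had one in 9 of 15, with Gng2 at 43.0 and Gng7 at 39.7 carrying shared regions. RGS genes had one in 10 of 21, with the microglial Rgs10 at 56.1, Rgs2 at 43.2, Rgs14 at 38.2 and Rgs1 at 37.2. Rgs3 (28.7) was the RGS gene with a shared region. Receptor kinases and arrestins had one in 7 of 8, with Grk2 at 59.8 and Arrb2 at 47.4, and adenylyl cyclases in 4 of 10, with Adcy7 at 35.2.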

How the data were processed

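FOS chromatin immunoprecipitation and input libraries came from 4 mice. Per the submitters' processing notes, Bowtie2 and HOMER were used with mm10 and GRCm38. Per the file headers, the authors merged a FOS peak list and an IL-33 list with HOMER mergePeaks. The deposited score of a region is averaged over its merged peaks, and all 1300 IL-33-only regions have a score of 0. The score was therefore multiplied by the number of merged peaks, another deposited value, and divided by the number of FOS peaks. The sources used here give neither peak calling settings nor how inputs were used. Depth is unknown.

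Each region went to the protein-coding gene body nearest its centre in the RefSeq table for GRCm38.p6, if this lay within 100 kb. Where bodies overlapped, each of those genes received it. There were 3 regions outside the main chromosomes, which were not used. Of the entries of the G protein, marker and role lists, the unmatched ones were 2 older kinase symbols, Gpr31c, Gpr89a and Gpr89b. Members and lists were chosen with earlier results of these data known. The genes named are those with an IL-33 list region, a FOS region from 4 calls or one of the 10 highest scores, the proton sensors, and the others with a FOS region by value, and members without one by name. Values of some members are not reported here. No test was made, because the table holds 1 merged value per region, and counts stand beside those of all coding genes. Assignment and score restoration were tested on simulated data. Python 3.11.15, numpy 2.4.6, pandas 2.3.3, scipy 1.17.1 and matplotlib 3.10.9 were used.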

Additional observations from a re-analysis of the deposited data

How the results depend on the processing

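The count of 30 genes with a FOS region stayed between 20 and 33 with limits of 10 kb, 1 kb or none, with at least 2 calls, with distance from the region edge, with regions inside several bodies left out, with every Gpr symbol, or with any region within 10 kb whichever gene was nearest. In each of these settings the members' share stayed below that of all coding genes. It was 27.4% against 37.0% with at least 2 calls, 31.5% against 44.5% at 1 kb, and 45.2% against 57.0% by the last setting. The last setting, the role groups and the count of genes with 4-call regions under other settings were added after seeing the data. With 4 calls the count was 14 (19.2%, against 17.5% of all genes), so that the members did not stand below the background at the limit of 100 kb. The 4-call count was 11 at 10 kb (15.1% against 15.3%). Without regions inside several bodies it was 11 as well (15.1% against 17.1%). With 3 regions the count was 6 (8.22% against 16.5%). It was 18 when scores had to reach the median of all FOS regions (24.7% against 32.9%). With 4 calls, 3 regions and the median score, in that order, leukocyte and metabolite receptors gave 6, 2 and 5 of 14. Neuronal and sensory members gave 0, 0 and 2 of 27, with 1 of 27 at 2 or more calls. Leukocyte and metabolite receptors gave 7 of 14 when regions inside several bodies were left out, against 48.7% of all genes, and 8 of 14 by any region within 10 kb, against 57.0%. With 2 or more IL-33 list calls 3 members had an IL-33 list region (4.11% against 4.28% of all genes), and with 4 FOS calls 2 had a shared one (2.74% against 2.67%). The median score was 32.3 with 4 calls and 21.6 as deposited. The cause of these moves was not tested, and neither was the part that a smaller number of regions in stricter settings may have. With the score as deposited the highest score fell at 4 members, from 42.7 to 21.3 at Gpr132 and from 36.2 to 22.4 at Gpr65. The restored values assume that peaks of the IL-33 list were averaged in as zeros. No paired analysis was possible because the table holds no values per mouse, and for the same reason no mouse could be left out. Widths of 270 bp and 320 bp held 5 and 10 of the 19 regions from 1 call. A width of 320 bp also occurred at Gpr107 in regions from 2 and from 4 calls. The same counts over all regions from 1 call were not computed. The sources used here do not say whether a width marks a single library.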

Other observations

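Promoter windows of 5 members held the AP-1 motif TGANTCA, and a FOS region overlapped 0 of them. They were a second window of Gpr35, a second window of Gpr146, and those of Gpr15, Gpr3 and Gpr39. Over all 68 member windows the share with the motif was 7.35%, against 7.81% of all windows. Of the 2565 windows in the table that held the motif, 351 lay under a FOS region. Of the 68 member windows, with or without the motif, 9 did. With 5 windows, a count of 0 cannot be told apart from these shares. The pseudogene Gpr31a on chromosome 17 had 2 FOS regions within 10 kb, the higher with a score of 46.0, and Gpr31c had 0. Of the FOS regions shared with the IL-33 list at members, 7 of 8 had peak centres within 50 bp of each other, and the exception was at Gpr65. These 8 regions lie at 4 genes. The same share over all shared regions was not computed, so the count has no background beside it.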
